A study of Rattus norvegicus with 9 samples.

Results

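The claudins, cadherins and connexins of the rat kidney, with occludin, tricellulin and the zonula occludens scaffolds, were compared between unperfused kidneys and kidneys perfused with MSC. Members were all gene probes of the array whose gene name is Cldn, Cdh, Tjp, Gja, Gjb, Gjc or Gjd followed by a digit, or is Ocln or Marveld2, without the endothelial cadherin Cdh5. This gave 67 genes on 74 probes, of 26115 gene names on 30367 probes. The rule uses gene names and no measured value. By family there were 22 claudins, 21 cadherins, 19 connexins and 5 genes of the occludin, tricellulin and scaffold group.

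Tight junctions close the space between neighbouring epithelial cells, and claudins set which ions pass through them. The nephron uses a different claudin mixture in each segment, leaky to salt and water in the proximal tubule, selective for divalent cations in the thick ascending limb and tight in the collecting duct. Cadherins hold the cells together at the adherens junction below, and connexins form the channels that join the cytoplasm of adjacent cells.

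Each array measured the total RNA of 1 kidney from an F344 rat, after 20 min. of warm ischaemia by clamping, which the labels place at the abdominal aorta and the study's methods at the renal artery. The 5 NP kidneys were taken at that point without perfusion. The 4 MSC kidneys were then perfused for 4 hrs at 4°C with Belzer solution that held 3000000 MSC, bone marrow mesenchymal stromal cells of EGFP transgenic Sprague Dawley rats. The groups therefore differ in the perfusion and its duration as well as in the MSC, and these cannot be told apart. The labels are divided on the NP kidneys, since the treatment field says that they were not perfused while titles and descriptions name Belzer perfusion. The age of the animals is not given in the labels.

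The 9 arrays lay on 2 slides, with NP 1, 2 and 3 and MSC 1 and 2 on slide 1 and NP 4 and 5 and MSC 3 and 4 on slide 2. Between 65.6% and 74.3% of gene spots were well above background and no gene spot was saturated. Markers of the labelled tissue were present, with all 10 proximal tubule, all 7 thick ascending limb and 6 of 7 podocyte markers above the filter. Genes of the fat around the kidney were highest on MSC 3 and MSC 4, with a mean of 2.72 and 1.90 log2 units above the average of the 9 arrays. Uroplakin genes of the urothelium followed the same split, at 1.35 and 0.83 on those arrays against -1.16 and -1.03 on MSC 1 and MSC 2.

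Values are log2 intensities after normalization between arrays, and a difference is the MSC mean minus the NP mean on that log2 scale, so that 1 is a doubling. A probe passed when it was brighter than a limit set from the negative control spots on at least 4 arrays. Of the 67 members 32 passed, on 35 probes. These were 14 of 22 claudins, 7 of 21 cadherins, 6 of 19 connexins and all 5 of the occludin, tricellulin and scaffold group. Of the 35 members that did not pass, 19 were not well above background on any array. The 35 included Cldn17, an anion pore of the proximal tubule, and Gjb6, a connexin of the distal nephron. Cdh11, the cadherin of stromal cells, stayed below the limit with both of its probes on every array, between 8.03 and 8.42. Gjc1, a vascular connexin, was well above background on all 9 arrays but passed the limit on only 1, between 8.31 and 8.74.

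The probes are 60 bases long. The first 30 bases are given for the 10 members with an unadjusted p under 0.05 and for both probes of Cldn19 and Cldn2, where the choice of probe bears on the result. Positions are those of the files on rn4 and cover the whole probe. The letters are all in lower case, since no part of them is singled out. The probes were not placed in exons, introns or UTRs, because no annotation of rn4 was used here. The Cldn7 probe covers 171 bases of the genome and thus joins sequence from both sides of a gap.
Cldn4 (chr12:22817873-22817932): aggtctgttcacagctgtaattattatttt
Cldn7 (chr10:56812476-56812646): atgactggaggcattattttcatcgtggca
Cldn1 (chr11:76488733-76488792): gatatttgggggctgaggtgggaatttgta
Cldn9 (chr10:12947838-12947897): ggctactccatcccttcccgttcaggtgct
Cldn23 (chr16:60110806-60110865): gtacaaaatgaactgctaagctgcattggc
Marveld2 (chr2:31407375-31407434): aagagttaagaacaacaacgaaaatggctc
Cdh1 (chr19:36511853-36511912): ttgctgtactcacataattttggaagcaaa
Cdh16 (chr19:289483-289542): tggtaatactccaaatggcagctctttgtc
Gjb1 (chrX:89455686-89455745): acccccttcacctggaagaggtaaagaggc
Gjb2 (chr15:36153667-36153726): caacaggggacacttcttcctgccaagaat
Cldn19, upstream probe (chr5:139840110-139840169): tgtctcatggtacgctaccctggtgaccca
Cldn19, downstream probe (chr5:139842651-139842710): ctaccatctctagactgtgtgtttgatatt
Cldn2, upstream probe (chrX:127546789-127546848): cctgacagcatgaaatttgagattggagaa
Cldn2, downstream probe (chrX:127548305-127548364): ttcagtgtggaacatcttttgaccaaggtg

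No junction gene differed between MSC and NP kidneys after adjustment. Of the 13929 genes tested with limma, 0 were called (0%), a call being an FDR under 0.05 together with a change of more than 1.5-fold, and the smallest FDR of a member was 0.335. Without adjustment 10 members had a p under 0.05. Cldn4, Cldn7, Cldn1, Cldn9, Cdh1, Cdh16 and Gjb1 were higher on average in MSC kidneys, 7 of 32 against 6.60% of all genes tested. Cldn23, Gjb2 and Marveld2 were lower on average, 3 of 32 against 5.10% of all genes. Without MSC 3 and MSC 4, the arrays with the highest fat scores, the counts were 3 of 32 higher against 3.82% of all genes and 2 of 32 lower against 2.69%. The higher ones were Cldn4, Gjb1 and Cldn10, of which the first 2 are among the 7, and the lower ones were Gja5 and Tjp3, neither among the 3. The 2 groups overlapped for every one of the 32 members, while over all genes 3.13% had every MSC array above every NP array and 2.13% had every MSC array below. The median difference was 0.03 over the members and -0.01 over all genes, with 17 members higher and 15 lower.

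**Figure D1:**
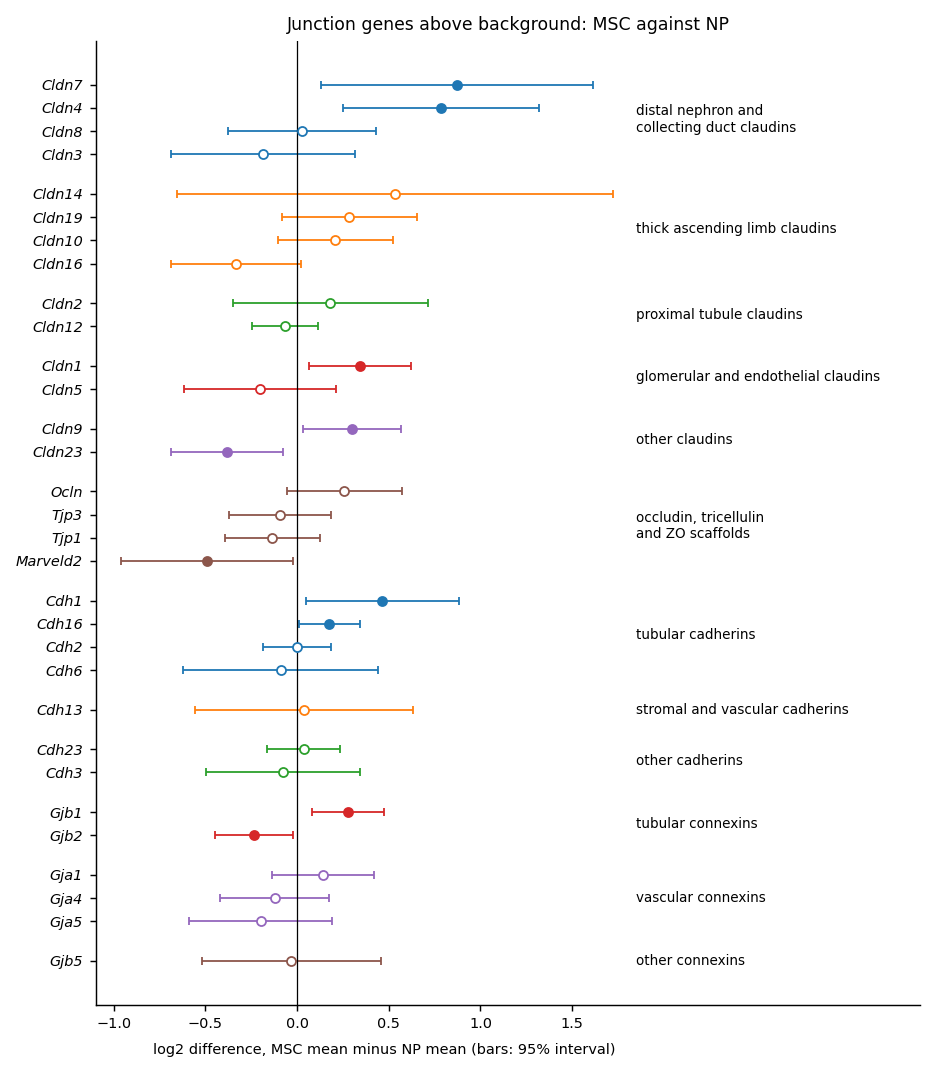
Difference of 31 of the junction genes above background, MSC mean minus NP mean on the log2 scale, with its 95% interval from limma, grouped by where in the kidney or junction the gene is known to act. Filled points have an unadjusted p under 0.05. The intervals of 21 genes cross 0, and the largest differences are those of Cldn7 (0.87) and Cldn4 (0.78).

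Cldn4 and Cldn7, claudins of the distal nephron and collecting duct, had the largest differences of the members. Cldn4, a barrier claudin that with Cldn8 governs chloride passage in the collecting duct, was 13.95, 13.76, 13.67, 13.91 and 14.28 on the NP arrays and 14.69, 15.27, 13.92 and 14.92 on the MSC arrays. The other 3 MSC arrays were above all NP arrays, and MSC 3 lay within the NP range. The difference was 0.78 ± 0.24 (SE, n = 5 and 4), with an unadjusted limma p of 0.0085 and an FDR of 0.335. Within slide 1 it was 1.19 and within slide 2 it was 0.32.

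Cldn7, a claudin of the distal tubule and collecting duct that also lines the lateral membrane, was 11.54, 11.77, 10.59, 10.79 and 12.44 on the NP arrays and 12.50, 12.35, 12.08 and 12.27 on the MSC arrays. The NP arrays had a wider spread than the MSC arrays (SD 0.75 against 0.17), and only NP 5 reached the MSC values. The difference was 0.87 ± 0.33 (SE, n = 5 and 4), with an unadjusted limma p of 0.0253 and an FDR of 0.385. It was 1.13 within slide 1 and 0.56 within slide 2. Leaving out NP 3, NP 4, MSC 1 or MSC 2 took the unadjusted limma p above 0.05, to at most 0.0617.

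Cldn8 and Cldn3, of the same segments, had differences near or below 0. Cldn8, the partner of Cldn4, was 9.88, 10.92, 10.23, 10.34 and 10.23 on the NP arrays and 10.48, 10.33, 10.14 and 10.44 on the MSC arrays. Its NP arrays enclosed all MSC arrays, and the difference was 0.03 with a 95% interval of -0.38 to 0.43. Cldn3, a sealing claudin of the thick ascending limb and distal nephron, had a difference of -0.19 (95% interval -0.69 to 0.31) and divided by slide, as given further on. With 1 array left out it ranged from -0.35 (without NP 4) to -0.09 (without NP 3). Over the 4 claudins the median difference was 0.41, with 3 of 4 higher, beside -0.01 over all genes.

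In the thick ascending limb, Cldn16 and Cldn19 form together the pathway through which calcium and magnesium are reclaimed. Cldn16 was 10.57, 11.22, 11.06, 11.04 and 10.96 on the NP arrays and 10.52, 10.87, 10.30 and 10.87 on the MSC arrays. Apart from NP 1, which lay among the MSC arrays, the NP arrays were the higher ones. The difference was -0.33 ± 0.16 (SE, n = 5 and 4) and did not pass even without adjustment (limma FDR = 0.452, unadjusted limma p of 0.0636). Without MSC 3 it was -0.22.

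Cldn19 had different answers from its 2 probes. The upstream probe was 12.10, 11.29, 11.63, 11.45 and 11.65 on the NP arrays and 12.04, 11.99, 11.58 and 12.04 on the MSC arrays, a difference of 0.29 (limma FDR = 0.525). The downstream probe was 14.59, 13.86, 14.25, 14.20 and 14.25 on the NP arrays and 14.39, 14.13, 14.00 and 14.31 on the MSC arrays, a difference of -0.02 (limma FDR = 0.961). Both probes had their highest value on NP 1 and their lowest on NP 2, while their differences between the groups were unlike in size. The difference between the probes was not tested.

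Cldn10, whose isoforms serve as a sodium pore in the thick ascending limb and an anion pore in the proximal tubule, was 14.15, 13.65, 14.20, 14.10 and 14.06 on the NP arrays and 14.46, 14.41, 14.04 and 14.05 on the MSC arrays. MSC 1 and MSC 2 were above all NP arrays, while MSC 3 and MSC 4 were within them. The difference was 0.21 (95% interval -0.10 to 0.52), and it was 0.11 without NP 2, 0.13 without MSC 1 and 0.41 without MSC 3 and MSC 4. Isoforms were not told apart by the single probe.

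Cldn14, the claudin that calcium sensing induces to block the Cldn16 and Cldn19 pathway, had the widest spread of all members. It was 9.13, 8.71, 8.82, 10.67 and 9.32 on the NP arrays and 8.84, 9.09, 10.26 and 11.26 on the MSC arrays. High values occurred in both groups, on NP 4, MSC 3 and MSC 4. The difference was 0.53 with an SE as large (0.53), a 95% interval of -0.66 to 1.72 and a limma p of 0.342. With 1 array left out it ranged from 0.07 (without MSC 4) to 0.87 (without MSC 1). It was -0.36 without MSC 3 and MSC 4, the arrays with the highest fat scores. Over the 4 claudins of this segment the median was 0.25, with 3 of 4 higher. It was 0.09 with the brightest probe of each gene and 0.06 without MSC 3 and MSC 4.

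In the proximal tubule, Cldn2 forms the pore for sodium and water. Its upstream probe was 10.49, 11.82, 11.003, 11.30 and 11.64 on the NP arrays and 11.39, 11.65, 11.40 and 11.29 on the MSC arrays, a difference of 0.18 (limma FDR = 0.795). Its downstream probe was 13.57, 13.23, 13.46, 14.16 and 14.23 on the NP arrays and 13.98, 13.99, 14.31 and 13.97 on the MSC arrays, a difference of 0.33 (limma FDR = 0.55). NP 2 was the highest of the 9 arrays on the upstream probe and the lowest on the downstream probe, so that the probes disagreed about this kidney. Cldn12, which lets calcium through in the same segment, lay between 9.64 and 9.90 on all arrays with a difference of -0.07. A further Cldn12 probe did not pass the filter.

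Claudins outside the tubule segments or without a settled place in it also differed by little. Cldn1, found in the parietal epithelium of Bowman's capsule, was 9.44, 9.74, 9.46, 9.89 and 9.76 on the NP arrays and 9.76, 9.95, 10.10 and 10.19 on the MSC arrays. The difference was 0.34 ± 0.13 (SE, n = 5 and 4; limma FDR = 0.37) and was 0.31 within slide 1 and 0.32 within slide 2. Without MSC 3 and MSC 4, where Cldn1 was highest, it was 0.20 (unadjusted limma p of 0.23), and leaving out either of them alone also took that p above 0.05, to at most 0.0659. Cldn5, the claudin of endothelium, had a difference of -0.20 (95% interval -0.62 to 0.21), with MSC 4 the lowest of all arrays at 10.38. Without MSC 4 it was -0.03, and without MSC 3 it was -0.32.

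Cldn9 was 9.41, 8.92, 8.81, 9.16 and 9.02 on the NP arrays and 9.30, 9.36, 9.29 and 9.50 on the MSC arrays, a difference of 0.30 ± 0.12 (SE, n = 5 and 4; limma FDR = 0.399). All NP arrays but NP 1 were below the MSC arrays. The lowest Cldn9 values are close to the filter limit of 8.71 to 8.78, and the difference was 0.58 on processed signals with 75th percentile scaling. Its unadjusted limma p was above 0.05 without NP 2, NP 3, NP 5, MSC 2 or MSC 4, at most 0.0908. Cldn23 was 11.87, 12.18, 11.98, 11.44 and 11.97 on the NP arrays and 11.60, 11.37, 11.54 and 11.51 on the MSC arrays, a difference of -0.38 ± 0.14 (SE, n = 5 and 4; limma FDR = 0.356). All NP arrays but NP 4 were above the MSC arrays, and the difference was -0.52 within slide 1 and -0.18 within slide 2. Without MSC 2 its unadjusted limma p was 0.0543.

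**Figure D2:**
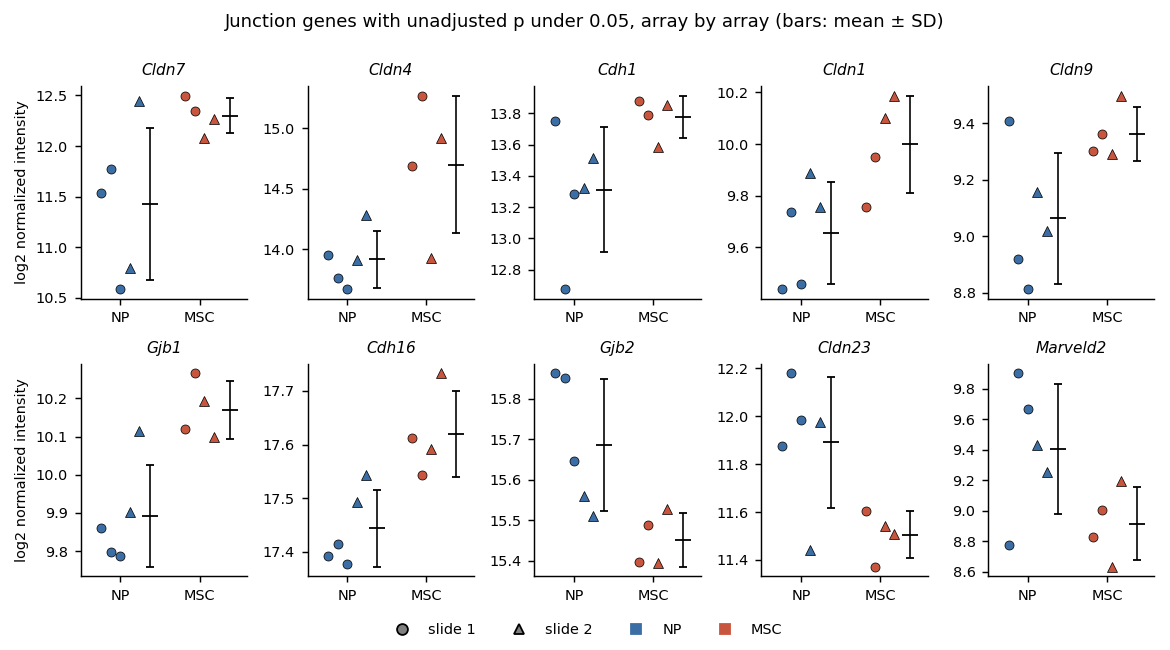
Log2 normalized intensity of the 10 junction genes with an unadjusted p under 0.05 on each of the 5 NP and 4 MSC arrays, with circles for slide 1, triangles for slide 2 and bars for mean ± SD. Each gene has its own vertical scale, and in every panel at least 1 array of a group lies within or beyond the range of the other group.

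Beside the claudins stand other genes of the same segments, none of them members. The intercalated cell list had 8 of 8 genes higher, with a median difference of 0.68. Higher with an unadjusted limma p under 0.05 were 6.60% of all genes tested and 6 of these 8 genes. Among these Atp6v0d2, a subunit of the proton pump of these cells, had a difference of 0.76 and Rhcg, an ammonia transporter, one of 0.81, each with every MSC array above every NP array. The list of the distal convoluted and connecting tubule had 6 of 6 higher with a median of 0.55, the largest being the calcium-binding protein Calb1 at 1.13. The principal cell list had 6 of 8 higher with a median of 0.27, and the sodium channel subunit Scnn1b in it a difference of 0.97. Such a p was found for 4 of the 6 distal convoluted and connecting tubule genes and 3 of the 8 principal cell genes, all higher. None of these genes passed the FDR either. For Calb1 this differs from the study, which reported it as significantly higher in MSC kidneys at an FDR under 0.05. Here its unadjusted limma p was 2.96e-05 and its FDR 0.206. The reason for this difference was not tested.

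The thick ascending limb list had 6 of 7 higher with a median of 0.27, and within it Slc12a1, the cotransporter that takes up sodium, potassium and chloride in this segment, had a difference of 0.50. The proximal tubule list had 8 of 10 higher with a median of 0.15. An unadjusted limma p under 0.05 was found for 3 of the 7 thick ascending limb genes and 2 of the 10 proximal tubule genes, all higher. The podocyte list had 0 of 6 higher with a median of -0.30 and no p under 0.05. Its mean was -0.83 on MSC 4, while the other MSC arrays, at -0.02, 0.19 and -0.03, lay within the NP range of -0.28 to 0.37. The means of the intercalated cell list ranged from -0.75 to 0.21 on the NP arrays and from 0.19 to 0.57 on the MSC arrays, with NP 1 the highest NP array and NP 2 the lowest. In whole kidney RNA, more cells of a segment and more RNA of a gene in each cell cannot be told apart. The part of segment content in the Cldn4 and Cldn7 differences was not tested.

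**Figure D3:**
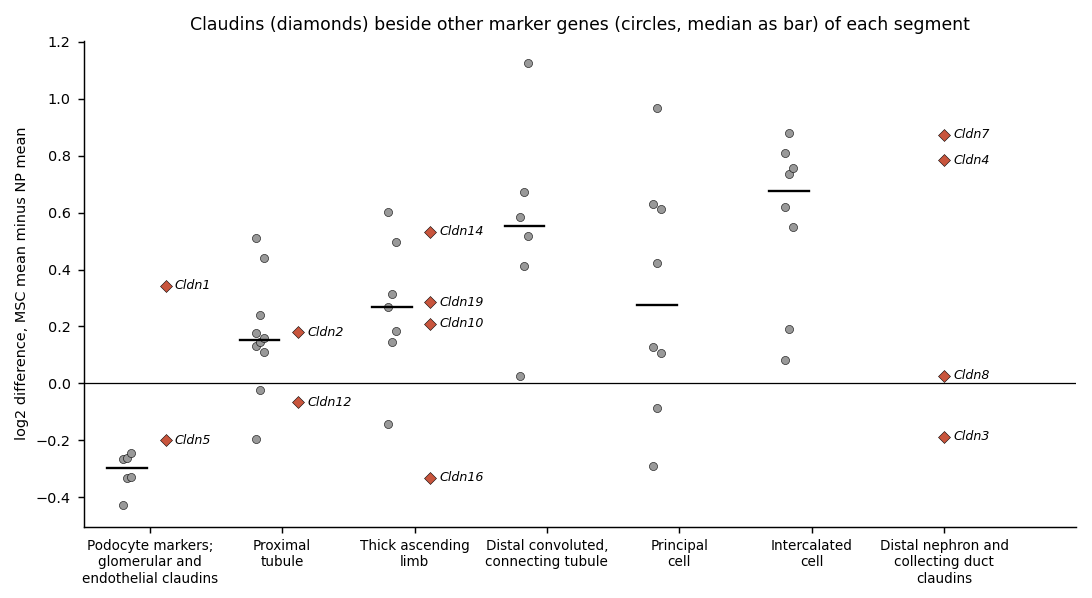
Difference, MSC mean minus NP mean on the log2 scale, of claudins (diamonds) beside other marker genes of each nephron segment (circles, with the median as a bar). Distal convoluted tubule and intercalated cell markers lie above 0, with medians of 0.55 and 0.68, and principal cell markers lie on both sides of it, with a median of 0.27. Cldn4 and Cldn7 lie above 0, and Cldn3 and Cldn8 near or below it.

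Of the other tight junction proteins, occludin and tricellulin span the membrane at contacts between pairs of cells and at corners where more cells meet. Marveld2, which encodes tricellulin, was 8.78, 9.90, 9.67, 9.43 and 9.25 on the NP arrays and 8.83, 9.01, 8.63 and 9.19 on the MSC arrays. NP 1 lay among the MSC arrays and the other NP arrays were above all of them. The difference was -0.49 ± 0.21 (SE, n = 5 and 4), with an unadjusted limma p of 0.0424 and an FDR of 0.416, and with slide as a block the p was 0.0598. The p also rose above 0.05 without any 1 of NP 2, NP 3, NP 4, MSC 1, MSC 2 or MSC 3, to at most 0.117, and was 0.182 with 75th percentile scaling. Its values are close to the filter limit of 8.71 to 8.78.

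Ocln, which encodes occludin, was 10.38 to 10.88 on the NP arrays and 10.55 to 11.16 on the MSC arrays, a difference of 0.26 (95% interval -0.06 to 0.57). The scaffolds that tie these proteins to actin had differences of -0.14 for Tjp1 (95% interval -0.40 to 0.13) and -0.09 for Tjp3 (95% interval -0.37 to 0.19). With single arrays left out these ranged from -0.21 (without MSC 3) to -0.05 (without MSC 4) for Tjp1 and from -0.18 (without MSC 4) to 0.0012 (without MSC 2) for Tjp3, and Ocln was 0.14 without MSC 4.

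Among 19 further tight junction genes 18 passed the filter, 8 higher and 10 lower, with a median difference of -0.05. F11r, the junctional adhesion molecule of epithelia, had a difference of 0.55 with every MSC array above every NP array (limma FDR = 0.333). Ybx3, a transcription factor held at the junction by the scaffold Tjp1, had a difference of -0.47 with every MSC array below every NP array (limma FDR = 0.333). The polarity protein Pard3 had a difference of -0.40 (limma FDR = 0.378).

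Of the cadherins, Cdh1 (E-cadherin), the main adhesion protein of the distal tubule and collecting duct, was 13.75, 12.68, 13.29, 13.32 and 13.52 on the NP arrays and 13.88, 13.79, 13.58 and 13.86 on the MSC arrays. NP 1 reached the MSC values and NP 2 was far below the rest. These arrays were also the highest and the lowest NP array of the intercalated cell list. The difference was 0.46 ± 0.19 (SE, n = 5 and 4), with an unadjusted limma p of 0.0328 and an FDR of 0.398, and was 0.59 within slide 1 and 0.30 within slide 2. Without NP 2 it was 0.31, with an unadjusted limma p of 0.0313. Leaving out NP 3, NP 4, MSC 1, MSC 2 or MSC 4 took that p above 0.05, to at most 0.0759. With median scaling it was 0.41 (unadjusted limma p of 0.183).

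Cdh16, the cadherin known for its restriction to kidney tubules, was 17.39, 17.41, 17.38, 17.49 and 17.54 on the NP arrays and 17.61, 17.54, 17.59 and 17.73 on the MSC arrays. The groups met only at NP 5 and MSC 2, but the difference was small, 0.18 ± 0.07 (SE, n = 5 and 4; limma FDR = 0.412), and with median scaling it was 0.08 (unadjusted limma p of 0.565). Without any 1 of NP 1, NP 2, NP 3, MSC 1, MSC 3 or MSC 4 that p was above 0.05, at most 0.115.

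Cdh2 (N-cadherin), which the proximal tubule carries, lay between 10.05 and 10.37 on all arrays, with a difference of 0.00 (95% interval -0.19 to 0.18). Cdh6, another cadherin of the proximal tubule, was 10.95, 12.37, 11.70, 11.95 and 11.80 on the NP arrays and 11.43, 11.90, 11.67 and 11.67 on the MSC arrays, a difference of -0.09. The NP arrays enclosed all MSC arrays, with NP 1 lowest and NP 2 highest. Cdh13, an adhesion protein of vessels that is anchored in the membrane by a lipid, was 9.57, 11.02, 10.02, 10.13 and 10.12 on the NP arrays and 10.19, 9.76, 10.25 and 10.64 on the MSC arrays. NP 1 was again the lowest array and NP 2 the highest, as on the upstream Cldn2 probe. On the other Cdh13 probe NP 2 was the highest as well, at 10.30, and MSC 2 the lowest, at 9.27. The list of stroma and smooth muscle genes had the same extremes, with means of -0.69 on NP 1 and 0.79 on NP 2. So had other lists, among them endothelium (-0.40 and 0.31), adherens junction genes (-0.25 and 0.25) and further tight junction genes (-0.13 and 0.11). On the intercalated cell list NP 1 was instead above NP 2 (0.21 and -0.75). What sets NP 1 and NP 2 apart, stromal content included, was not tested.

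Partners of the cadherins lay close to 0 as a list. Of 10 adherens junction genes 8 passed the filter, 3 higher and 5 lower, with a median difference of -0.02, a range of -0.35 to 0.25 and no p under 0.05. Of 8 desmosome genes 6 passed, 2 higher and 4 lower, with a median of -0.06. The transcription factors that repress the Cdh1 gene lay between -0.03 and 0.03 for the 4 of 5 that passed. These differences were not precise, with an SE of 0.46 for Zeb2. Snai1 (means of 8.93 in NP and 8.96 in MSC) and Twist1 (8.81 and 8.79) were close to the filter limit of 8.71 to 8.78.

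Of the connexins, those of the tubule had differences of opposite sign. Gjb1, a connexin of tubule and liver epithelium, was 9.86, 9.80, 9.79, 9.90 and 10.12 on the NP arrays and 10.12, 10.27, 10.19 and 10.10 on the MSC arrays. The groups overlapped only at NP 5. The difference was 0.28 ± 0.09 (SE, n = 5 and 4), with an unadjusted limma p of 0.0106 and an FDR of 0.335, and was 0.38 within slide 1 and 0.14 within slide 2. No array left out took its unadjusted limma p above 0.05, but that p was 0.0748 with median scaling and 0.311 with slide 2 only.

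Gjb2, which pairs with Gjb1 in many epithelia, was 15.86, 15.85, 15.65, 15.56 and 15.51 on the NP arrays and 15.40, 15.49, 15.40 and 15.53 on the MSC arrays. NP 1, 2 and 3 on slide 1 were the highest, and the NP arrays of slide 2 came close to the MSC arrays. The difference was -0.23 ± 0.10 (SE, n = 5 and 4; limma FDR = 0.402). It was -0.34 within slide 1 and -0.07 within slide 2. Omitting NP 1, NP 2, MSC 1, MSC 2 or MSC 3 took its unadjusted limma p above 0.05, to at most 0.0836.

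None of the connexins of vessels and renin cells had an unadjusted p under 0.05. Gja1, the most widespread connexin, had a difference of 0.14 (95% interval -0.14 to 0.42), Gja4 of the endothelium one of -0.12 (95% interval -0.42 to 0.18) and Gja5, which links renin cells and endothelium, one of -0.20 (95% interval -0.59 to 0.19). Gja5 exceeded the filter limit on only 5 of the 9 arrays, with MSC 3 the only MSC array among them. Its values, 8.53 to 9.37, are close to that limit. Single arrays moved each of these connexins. With 1 array left out Gja1 ranged from 0.08 (without NP 4) to 0.23 (without NP 3), Gja4 from -0.21 (without NP 3) to -0.04 (without MSC 4) and Gja5 from -0.36 (without MSC 3, unadjusted limma p of 0.0395) to -0.10 (without NP 4). The endothelial marker list had a median of 0.01, with 4 of its 8 genes higher. Of the pannexins, channel proteins related in form to connexins, Panx2 had a difference of -0.40 with every MSC array below every NP array (limma FDR = 0.333).

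The slide was a divide for several junction genes. For 5 of 32 members the arrays of slide 1 and slide 2 did not overlap, against 6.60% of all genes tested. They were Cldn3, Cldn14, Tjp3, Gjb5 and Cdh2, and the comparison was added after the values had been seen. In a model of group and slide, 7 of 32 members had an unadjusted limma p under 0.05 for slide, against 1932 of 13929 genes. For Cdh2 this p was 0.102. Cldn3 was 16.10, 16.03 and 16.17 on the NP arrays and 15.87 and 15.67 on the MSC arrays of slide 1, and 15.13 and 15.44 on the NP arrays and 15.30 and 15.51 on the MSC arrays of slide 2. With group kept in the model the difference of slide 2 from slide 1 was -0.61 ± 0.12 (SE, n = 4 and 5 arrays; limma FDR = 0.0815).

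For Cldn14 the same difference was 1.42 ± 0.31 (SE; limma FDR = 0.107), with slide 1 between 8.71 and 9.13 and slide 2 between 9.32 and 11.26. For Tjp3 it was 0.31 ± 0.08 (SE; limma FDR = 0.146). No member passed an FDR under 0.05 for slide, against 0.108% of all genes. Which kidney was placed on which slide, and the scan of each slide, cannot be told apart here.

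**Figure D4:**
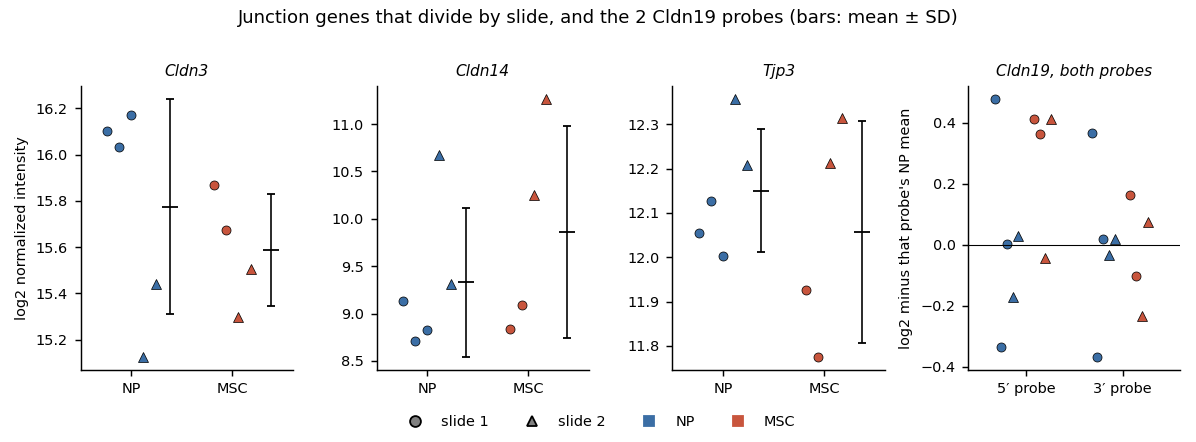
Log2 normalized intensity of Cldn3, Cldn14 and Tjp3 on each array, with circles for slide 1, triangles for slide 2 and bars for mean ± SD, and both Cldn19 probes relative to their own NP mean. Slide 2 lies below slide 1 for Cldn3 and above it for Cldn14 and Tjp3 in both groups, and on the upstream (5′) Cldn19 probe all MSC arrays but MSC 3 stand above 0, while on the downstream (3′) probe the MSC arrays lie on both sides of it.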

How the data were processed

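Total RNA of 5 NP and 4 MSC kidneys was hybridized with Cy3 to 1-colour Agilent rat arrays by the authors, who deposited the intensity of each spot from Agilent Feature Extraction (10.7.3.1 in the file headers) and a table of normalized log2 values made with limma. The deposited log2 values served only as an alternative. Here mean pixel intensities of gene and negative control spots were log2 transformed, with outlier-flagged spots left out (273 to 593 per array), and normalized by cyclic loess without background subtraction. Probes had to exceed 1.1 times the negative controls' 95th percentile, in log2, on at least 4 arrays, which left 15836 of 30367 probes. Repeated spots were averaged, and each gene was read from its most variable probe. MSC and NP were compared with limma 3.58.1 in R 4.3.3 (linear model, empirical Bayes, Benjamini-Hochberg FDR over 13929 genes), with no block. The number of arrays limits the precision. The model was tested on simulated data with known changes.

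The members, role lists and marker lists were chosen with earlier results of these data known. Genes named are the junction genes with a known place in the kidney or role in the junction, and any other member with a limma p under 0.05. The values of 1 member above background are not reported here. Other genes are named as at most 3 of each list. Slide comparisons use the same model with slide added. Gene names are those of the files. Of 74 member probes 67 were found by accession in a current RefSeq gene table, where 0 had a changed name. Probe positions are on rn4. Probes of different genes were not compared in level. The alternatives took other intensities, scalings, filters, probes, variance models and blocks, single slides, and left out each array in turn. The columns of the deposited table were all used (0 left out). A further MSC array that the authors discarded was not analysed.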

Additional observations from a re-analysis of the deposited data

Results flagged for a closer look

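On 2 of 56 sets of arrays (28 genes in each group, of which chance gives about 1 in 20) a single array stood apart from the others of its group by Dixon's ratio of the gap to the range. For Cldn10, NP 2 was the lowest NP array at 13.65 against 14.06 for the next (ratio 0.753). For Cldn19 on its upstream probe, MSC 3 was the lowest MSC array at 11.58 against 11.99 for the next (ratio 0.891).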

How the results depend on the processing

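Of 28 junction genes named, 15 kept the direction of their difference in every alternative run, among them the 10 with an unadjusted p under 0.05. The count of all genes called higher went from 0 to 2 with array weights and to 4 with slide 2 only, and stayed at 0 for genes called lower. With unadjusted p, members higher went from 7 to 4 under 75th percentile scaling, and to 3 with median scaling, with slide 1 only, with slide 2 only and with MSC 3 and 4 left out (an alternative chosen after seeing the data). Members lower went from 3 to 1 under 75th percentile scaling of either intensity and to 0 with slide 2 only. With one array left out the counts ranged from 3 to 7 higher and from 1 to 4 lower, falling to 3 without NP 3 or MSC 4 and to 4 without MSC 1 or MSC 2 for higher, and to 1 without NP 2, MSC 1 or MSC 2 for lower. The replicate block gave 5 higher and 2 lower and 0 genes called. Kidneys of the same number had correlated deviations of 0.199, 0.325, -0.348 and 0.045, so the numbers were not taken as pairs. The cause of these moves was not tested, save that fewer arrays were used where some were left out.

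Signs that turned were those of small or uneven differences, and for Cldn12 and Cldn19 they turned where another probe was read. For Cdh2 the difference was 0.0108 after quantile normalization, 0.0345 under 75th percentile scaling and 0.0196 under the same scaling of processed signals, 0.0035 with normexp correction, 0.0361 with array weights, 0.011 with slide as a block, 0.0797 with slide 1 only and 0.104 without MSC 3 and 4. Cdh13 was -0.229 with slide 1 only and -0.196 without MSC 3 and 4. Cldn14 was -0.0441 with array weights and -0.363 without MSC 3 and 4. Cldn3 was 0.118 with array weights and with slide 2 only. Cldn12 was 0.0708 with no filter and with the filter on spots well above background, both read from the probe that did not pass the main filter. Cldn19 was -0.0243 with the brightest probe, its downstream one. With slide 2 only Cldn10 was -0.0406 and Cldn2 -0.128, and with slide 1 only Cldn5 was 0.0348 and Gja4 0.0512. With one array left out the difference ranged from -0.11 to 0.251 for Cdh13 (negative without NP 1 or MSC 4), from -0.0597 to 0.0477 for Cdh2, from -0.29 to 0.0643 for Cdh6 (positive without NP 2), from -0.0091 to 0.322 for Cldn2 (negative without NP 1), from -0.0842 to 0.176 for Cldn8 (negative without NP 1, MSC 1 or MSC 4) and from -0.179 to 0.0012 for Tjp3 (positive without MSC 2). The median over all genes lay between -0.04 and 0 under the scalings tried.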
